A study of Mus musculus with 128 samples.

Results

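Among 59922 chromatin regions found open in at least 1 of 6 libraries of cultured mouse hepatocytes, 5583 carried an accessibility peak in both untreated Pard3WT libraries and in none of the libraries treated with TPPB or made from Pard3HMKO cells. These 5583 regions are called the members below. They were chosen by peak presence alone: the listed ATAC-seq peaks of 2 Pard3WT control, 2 Pard3WT TPPB and 2 Pard3HMKO control libraries were merged wherever they shared at least 1 base, and 30354 merged regions had a peak in both controls. The members are 18.4% of those 30354 regions, and the other 24771 serve as the comparison set. The choice used the culture measurements themselves, so the absence of peaks in the TPPB and Pard3HMKO cultures is a description of the members and not a finding. A missing peak says only that no peak was listed there.

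ATAC-seq cuts and tags DNA where it is not packed away by nucleosomes, and its peaks mark promoters, enhancers and other sites bound by regulatory proteins. Fetal liver cells are held in their lineage by factors of the HNF, FOXA and C/EBP families, which act through such sites to switch on albumin, clotting factor and metabolic genes as birth approaches. PAR3, the product of Pard3, is a scaffold of the cell polarity machinery and a partner of atypical protein kinase C. TPPB is a small molecule that activates protein kinase C. The fetal liver also makes blood, so blood and immune cells lie beside the hepatocytes, and in those cells the factor PU.1 acts through sites of its own.

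All ATAC libraries were made from 1000 cells labelled as hepatocytes of C57BL/6 mice that carry Foxa3-Cre, a Cre recombinase driven by an endodermal gene. Pard3WT and YapWT libraries carry Foxa3-Cre alone, Pard3HMKO libraries carry Foxa3-Cre with Pard3-fl/fl, and YapHMKO libraries carry it with Yap-fl/fl. The cultured cells were taken at E15.5 and kept for 2 days with no treatment, with TPPB or with an agent labelled PD, and 12 further ATAC libraries came straight from E17.5 liver (3 each of Pard3WT, Pard3HMKO, YapWT and YapHMKO). Transcripts were read in separate Smart-seq3xpress libraries of single cells, summed per library: 2 each of Pard3WT culture untreated, with TPPB, with PD, with TPPB and PD or with U0126, of Pard3HMKO culture untreated, with PD or with U0126, of YapWT culture untreated, with TPPB or with PD and of YapHMKO culture untreated or with PD, 2 each of E17.5 Foxa3-Cre and Alfp-Cre livers with and without Pard3-fl/fl, and 18 libraries of wild-type B6C3F1 liver from E11.5 to E19.5. Alfp-Cre is driven by albumin and alpha-fetoprotein control sequences. The fits behind the E17.5 liver tests also took in other Foxa3-Cre liver libraries from E11.5 to P14. These were Pard3WT and Pard3HMKO livers of other ages, YapWT and YapHMKO livers, and livers labelled for both genes. No label says whether replicates came from separate animals, so p-values measure the spread between these libraries only.

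The depth and purity of the libraries set limits that touch every result below. The 2 Pard3WT control libraries listed 35879 and 45898 peaks, against 26543 and 34216 with TPPB and 26293 and 35301 in Pard3HMKO culture. The culture RNA libraries in the fits held 6851744 to 18862265 counts in 14 to 32 cells each. Levels are given in CPM, which are counts scaled to a common library size, and differences on a log2 scale with their standard errors. Cells in which at least 50% of another type's marker list was detected made up 23.5% and 20% of Pard3WT control libraries and 15% and 23.8% with TPPB. The shares were 47.4% and 47.6% in Pard3HMKO culture, and 15.8% and 57.1% in the YapWT controls. Markers of hepatocytes were detected in all of these libraries: the summed level of an 8-gene list was 40832 to 43364 CPM in Pard3WT controls, 6394 to 6692 CPM with TPPB and 11520 to 11774 CPM in Pard3HMKO culture. At E17.5 the marked cells were 38.2% and 38.3% of Foxa3-Cre Pard3WT libraries and 64.7% and 51.6% of Pard3HMKO. Under Alfp-Cre they were 73.6% and 62.5%, then 50.75% and 64.3%. The mark rests on detection alone and was on all cells of both P0 Foxa3-Cre Pard3WT libraries. It does not show that a cell is of another type. The Pard3 read counts cover the whole gene and cannot show the loss of the floxed exon: Pard3 was at 101 and 74.0 CPM in cultured Pard3WT controls and at 65.9 and 57.7 CPM in Pard3HMKO. Among the RNA libraries Yap1 was not lower in those labelled YapHMKO, so directions drawn from YapHMKO hold for the label only. In the ATAC libraries, each made from many cells, fewer cells of a type and a lower signal per cell cannot be told apart.

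The promoter sequences shown next are examples of immune and liver genes among the members, chosen after values were seen. The first 4 belong to immune cell genes and hold the PU.1 letters GAGGAAGT on one strand (capitals; the reverse complement is ACTTCCTC). The last 4 belong to liver genes whose start site a member covered whose transcript was lower in both sets of cultures and whose member had a peak in all 3 E17.5 Pard3WT livers. In Klkb1 the capitals mark a C/EBP match (TTGCNNAA, here on the opposite strand) and then a FOXA match (TGTTTAC, opposite strand). Each run is the 250 bases before the annotated start, 5′ to 3′ on the gene's strand, from RefSeq on GRCm38.p6. S100a8 lies at chr3:90668821-90669070 (plus strand), C1qc at chr4:136892915-136893164 (minus), Pik3cg at chr12:32208471-32208720 (minus), Havcr2 at chr11:46454681-46454930 (plus), Amy1 at chr3:113574763-113575012 (minus), Klkb1 at chr8:45294836-45295085 (minus), Nr1i2 at chr16:38294825-38295074 (minus) and Serpina1c at chr12:103904951-103905200 (minus).
S100a8: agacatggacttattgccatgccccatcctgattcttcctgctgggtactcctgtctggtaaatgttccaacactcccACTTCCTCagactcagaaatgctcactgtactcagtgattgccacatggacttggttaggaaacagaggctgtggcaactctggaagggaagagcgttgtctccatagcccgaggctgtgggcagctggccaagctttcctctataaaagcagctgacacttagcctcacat
C1qc: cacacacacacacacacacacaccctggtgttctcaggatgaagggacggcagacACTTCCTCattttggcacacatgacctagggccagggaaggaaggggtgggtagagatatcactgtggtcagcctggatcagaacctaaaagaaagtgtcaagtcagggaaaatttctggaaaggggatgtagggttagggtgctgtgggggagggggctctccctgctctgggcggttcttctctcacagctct
Pik3cg: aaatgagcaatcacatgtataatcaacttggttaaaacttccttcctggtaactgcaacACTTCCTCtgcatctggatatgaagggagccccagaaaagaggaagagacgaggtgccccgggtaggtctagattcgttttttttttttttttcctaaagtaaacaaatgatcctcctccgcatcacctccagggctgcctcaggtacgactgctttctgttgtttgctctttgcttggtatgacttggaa
Havcr2: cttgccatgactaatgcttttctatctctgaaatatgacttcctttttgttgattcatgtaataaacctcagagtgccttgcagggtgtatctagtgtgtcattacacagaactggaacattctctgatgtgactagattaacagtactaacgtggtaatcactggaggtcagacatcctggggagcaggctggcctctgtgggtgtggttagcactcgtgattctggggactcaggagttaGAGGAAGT
Amy1: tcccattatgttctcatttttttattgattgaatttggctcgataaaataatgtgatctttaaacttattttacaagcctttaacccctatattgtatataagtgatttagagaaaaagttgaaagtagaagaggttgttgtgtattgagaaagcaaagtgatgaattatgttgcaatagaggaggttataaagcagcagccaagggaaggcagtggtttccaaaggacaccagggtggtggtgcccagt
Klkb1: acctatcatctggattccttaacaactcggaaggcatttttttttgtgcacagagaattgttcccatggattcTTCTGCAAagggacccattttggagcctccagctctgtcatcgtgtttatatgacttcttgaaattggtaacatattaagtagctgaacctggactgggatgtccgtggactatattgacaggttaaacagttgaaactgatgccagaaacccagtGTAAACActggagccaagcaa
Nr1i2: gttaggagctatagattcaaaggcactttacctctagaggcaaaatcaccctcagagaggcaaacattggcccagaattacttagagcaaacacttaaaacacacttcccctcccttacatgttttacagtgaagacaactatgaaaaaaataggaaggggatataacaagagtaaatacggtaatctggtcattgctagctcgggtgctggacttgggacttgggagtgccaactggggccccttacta
Serpina1c: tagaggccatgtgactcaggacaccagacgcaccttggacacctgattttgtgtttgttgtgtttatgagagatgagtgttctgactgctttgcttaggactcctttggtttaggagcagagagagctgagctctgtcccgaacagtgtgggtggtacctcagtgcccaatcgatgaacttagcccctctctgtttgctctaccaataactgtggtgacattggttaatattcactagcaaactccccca

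A member lay over the start site of each of these 8 genes in both cultured controls. The E17.5 peaks of the liver genes were part of how these were picked. No E17.5 library listed a peak at the S100a8, C1qc or Havcr2 member and 2 of 12 did at Pik3cg, whereas all 12 did at Amy1, Klkb1 and Serpina1c and 10 at Nr1i2. S100a8 encodes a calcium-binding protein of neutrophils, C1qc a chain of complement C1q made by macrophages, Pik3cg a phosphoinositide kinase of leukocytes and Havcr2 the immune receptor TIM-3. Amy1 encodes an amylase, Klkb1 plasma prekallikrein, Nr1i2 the xenobiotic receptor PXR and Serpina1c an alpha-1-antitrypsin. Genes that were not shown did not all divide in this way: Slc11a1 had the highest score among genes with a covered start and a lower transcript (156.53) but a peak in 1 Pard3WT and no Pard3HMKO liver. Slc22a18, a gene of the same set whose window holds the PU.1 letters, had one in 1 Pard3WT and 3 Pard3HMKO livers.

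The members were mostly weak peaks. The authors' peak score in the weaker of the 2 controls had a median of 68.43 over members (quartiles 58.26 and 87.48, range 50.01 to 309.18), against 129.47 over the other 24771 regions, where the lowest score the caller listed was about 50. The lower control score was under 55 for 786 members (14.1%), and 929 members (16.6%) reached 100 in both controls, as did 15543 of the other regions (62.7%). Just outside the rule stood 2307 regions with a peak in both controls and in 1 of the other 4 libraries. Their median lower control score was 72.01, and the single extra peak scored under 55 in 476 of them (20.6%). That peak was in Pard3HMKO control replicate 2 for 1320 of these regions (57.2%), so this library decided the membership of many regions. Members were also narrow, with a median width of 464 bases against 807.

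Most members lay away from promoters. Of the 5422 members outside chromosome 18, whose start sites were not used here, 250 (4.61%) covered an annotated transcription start, compared with 36.8% of the other regions. Another 2798 (51.6%) lay inside a gene, 785 (14.48%) lay outside but within 10 kb, and 1589 (29.3%) lay farther out. The median distance to a start site was 18186 bases for members and 6392 bases for the others. Over all chromosomes, 3896 members within 10 kb of a gene had 2816 nearest genes, of which 2111 had 1 member, 479 had 2 and 226 had 3 or more. The genes with most members were Tbxas1, thromboxane synthase of platelets and macrophages, with 11 members among 16 regions open in both controls, and Pde4d, a cyclic AMP phosphodiesterase, with 9. Apbb1ip, an adaptor of leukocyte integrins, had 8 members and 1 other open region, and Fli1, an ETS factor of blood and endothelium, had 6 and 1.

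Genes of immune cells held more of their open regions as members than genes of hepatocytes did. Over all 21900 protein-coding genes, 13.8% of the regions open in both controls within 10 kb were members, and 3431 genes (15.7%) had at least 1. On the macrophage and myeloid list 15 of 23 such regions (65.2%) were members, spread over 7 of 14 genes (C1qa, C1qb, C1qc, Csf1r, Lyz2, Ptprc and S100a8). On a wider list of 40 white blood cell genes, written after the genes with most members had been seen, 98 of 163 regions (60.1%) were members and 33 genes had one. For hepatocyte function genes the share was 8 of 58 (13.8%), for hepatocyte transcription factors 8 of 83 (9.64%) and for fetal liver genes 3 of 31 (9.68%). Stellate cell genes stood between at 4 of 12 regions (33.3%) and endothelial genes at 5 of 24 (20.8%), and no erythroid gene of 11 had a member. These shares are descriptions of a set that the culture peaks chose.

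The remaining pathway lists lay near the background of 13.8%. Genes of the YAP and TEAD list, pathway components and targets, had 9 members of 64 open regions (14.1%), near Axl, Birc5, Crim1, Ptpn14, Tead2, Vgll4 and Wwtr1. Genes of the ERK response, which encode immediate early factors and the phosphatases that limit the pathway, had 6 of 62 (9.68%), near Dusp1, Dusp4, Etv5, Fos and Myc. Polarity and junction genes had 17 of 131 (12.98%), including Cldn1 and Cldn3 (claudins of the tight junction), Cdh1 (E-cadherin), Tjp1, Pard6g and the kinases Prkca, Prkcd, Prkce and Prkch. Metabolic genes had 15 of 101 (14.9%), including Cpt1a and Acadm of fatty acid oxidation and Cyp8b1 of bile acid synthesis. Cell cycle genes had 3 of 43 (6.98%), near Cdc6, Mcm3 and Tk1.

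**Figure D1:**
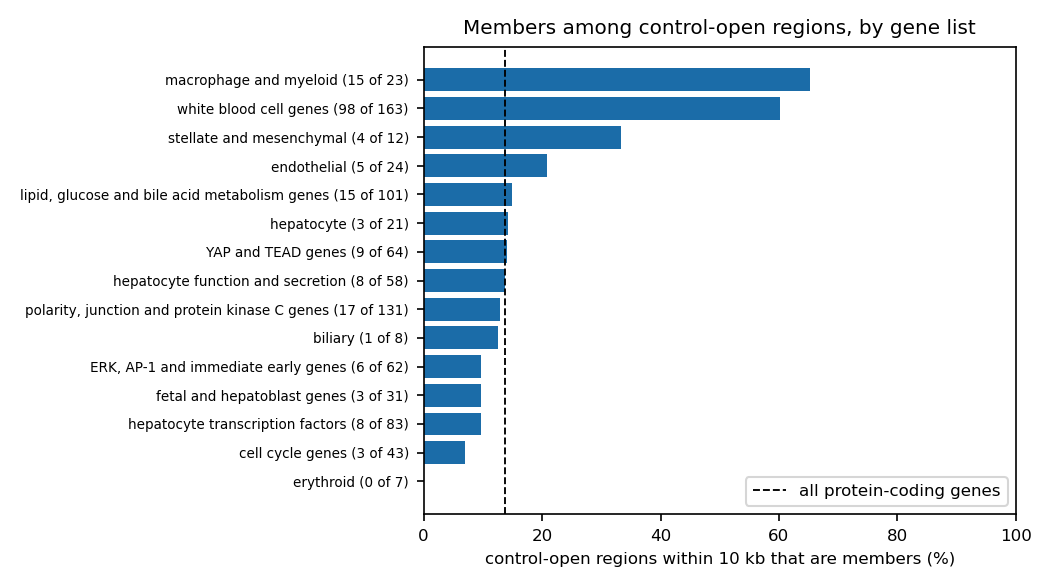
Bars give the percentage of regions with a peak in both cultured Pard3WT controls, within 10 kb of the genes of each list, that are members, with the counts in brackets. The macrophage and myeloid list (65.2%) and the white blood cell list (60.1%, written after the data were seen) stand at the top, and the hepatocyte lists lie at or under the 13.8% of all protein-coding genes.

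The members with the highest control scores were not near genes of the pathway lists. The highest lower score, 309.18 (350.1 in the other control), was at chr3:37769099-37769910, 44.7 kb from the predicted gene Gm5148. It was followed by a region at chr9:61702208-61703061, whose nearest gene, the ribosomal protein gene Rplp1, is 210 kb away (300.68 and 286.49). Others lay inside Sipa1l1 (269.5 and 275.48), Slc15a3, which encodes a lysosomal peptide transporter of immune cells (251.16 and 461.78), and Dennd2c (249.77 and 293.67). Another lay outside Pip4k2a, 6454 bases away (247.39 and 300.15). The last pair were near Sema6d (244.5 and 361.55) and Cep19 (252.05 and 244.1). In the E17.5 livers the Gm5148, Rplp1, Pip4k2a and Sema6d members had no peak in any of 12 libraries, and the Cep19 member had one in 3.

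Of members near pathway genes, the strongest were next to Dusp1, the phosphatase that turns ERK and other MAP kinases off (191 and 270.43), and inside Axl, a receptor tyrosine kinase and YAP target (146.61 and 174.16). The Dusp1 member, 7.5 kb from the gene at chr17:26497208-26498067, had peaks at E17.5 in 2 of 3 Pard3WT libraries and in none of 3 Pard3HMKO. The Axl member (chr7:25776607-25777115) and the members at Cpt1a (127.15 and 182.85) and at Pparg (108.03 and 102.74), the fat cell regulator, had no peak at E17.5. Members next to Cldn1 and Plg were open at that age. The Cldn1 member (chr16:26357989-26358426; 100.93 and 176.31 in culture) scored 54.72, 119.21 and 85.26 in the 3 Pard3WT livers and had a peak in 1 of 3 Pard3HMKO livers, at 104.94. The Plg member (chr17:12385463-12385876; 96.63 and 107.63), at the gene for plasminogen, scored 142.22, 168.43 and 123.42 in Pard3WT and had a peak in Pard3HMKO replicate 2 alone, at 85.42. The member at Cdc6 (122.26 and 120.5) had a peak in 1 Pard3WT library and in no Pard3HMKO library. The Dusp4 member (91.73 and 97.51) had a peak in 1 Pard3WT library, at 63.04, and a higher one in Pard3HMKO replicate 2, at 104.28. It also had peaks in all 3 YapHMKO labelled livers and in no YapWT liver.

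Strong members also covered immune gene promoters, named here after their values were seen. The member over the Ccl3 start, the gene of a macrophage chemokine (chr11:83648573-83649950), scored 235.89 and 252.03. That over the start of C3ar1, the complement C3a receptor, scored 200.27 and 193.93, and that over Clec4a3, a myeloid lectin receptor, 183.05 and 219.59. None of these had a peak in the 12 E17.5 libraries. The member over the start of Arhgap30, a leukocyte GTPase regulator (chr1:171388661-171389323; 241.63 and 266.39), differed, with peaks in all 3 Pard3WT livers (52.36, 203.98 and 89.4) and in 2 of 3 Pard3HMKO livers.

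The sequences at member start sites held the PU.1 letters more often than other promoters. The motif GAGGAAGT, added after the genes were seen and searched on both strands, was in 36 of 264 promoter windows covered by members (13.6%), in 2.76% of 11587 windows covered by the other regions and in 3.20% of all 32851 windows of 300 bases. AP-1 letters (TGANTCA) were in 10.98%, 4.92% and 7.81% of the same sets, and C/EBP letters (TTGCNNAA) in 14.8%, 7.76% and 10.8%. Letters typical of constitutive CpG promoters were scarce: the NRF1 motif was in 0.379% of member windows, 11.1% of the others and 4.60% of all, and the ETS letters CCGGAAGT in 0.758%, 9.01% and 3.89%. Member windows had a median of 5 CG dinucleotides, against 22 and 7. Letters of TEAD (GGAATG; 10.98%, 11.2% and 14.7%) and FOXA (TGTTTAC; 3.03%, 2.53% and 3.65%) were about as frequent in each set. The 21000 windows that no control-open region covered had a median of 4 CG dinucleotides. Among them AP-1 letters were in 9.36%, C/EBP in 12.4%, NRF1 in 1.06%, ETS in 1.10% and PU.1 in 3.31%. For all of these but PU.1, member windows lay closer to the uncovered windows than to those covered by the other regions. A match is a run of letters and not a bound site, and PU.1 letters overlap those of other ETS factors.

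At E17.5, most members had no peak. None of the 12 libraries listed one at 3319 members (59.4%), compared with 10.5% of the other control-open regions, and all 12 did at 208 members (3.73%, against 54.2%). The other regions were stronger peaks in culture. At a lower control score of 50 to 60, a mean of 24.2% of members and 47.2% of other regions had a peak in Pard3WT livers. At a score of 100 or more the means were 17.6% and 85.8%. Regions with a peak in both controls and 1 of the other 4 culture libraries stood at 50.5%. The share of members with a peak was 19.3%, 29.0% and 17.2% in the 3 Pard3WT livers and 16.48%, 15.49% and 15.55% in the 3 Pard3HMKO livers. In YapWT it was 19.6%, 21.4% and 15.6%, and in the libraries labelled YapHMKO 15.1%, 16.2% and 14.7%. Pard3WT replicate 2 stands apart at the top, and it alone had a peak at 261 members (4.67%, against 0.50% of other regions).

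Members had fewer peaks in every Pard3HMKO liver than in every Pard3WT liver, but 3 libraries against 3 cannot reach significance. To allow for peak numbers, the share among the other control-open regions of the same library, which was 71.4% to 76.8% across the 12, was subtracted. The members then stood at −52.7 ± 4.26 percentage points in Pard3WT (SD, n = 3) and −60.2 ± 0.698 in Pard3HMKO (SD, n = 3), with no overlap. The difference of −7.48 points had a two-sided exact permutation p of 0.10, the smallest this design allows, and was −5.02 points without Pard3WT replicate 2. YapWT and YapHMKO labelled libraries differed by −4.73 points (−55.2 ± 2.14 and −59.9 ± 0.727, SD, n = 3 each; exact permutation p 0.10). The Pard3 difference was −7.99 points when each member was set against other regions in the same band of the control score, and −7.54 points without members near white blood cell or myeloid genes.

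**Figure D2:**
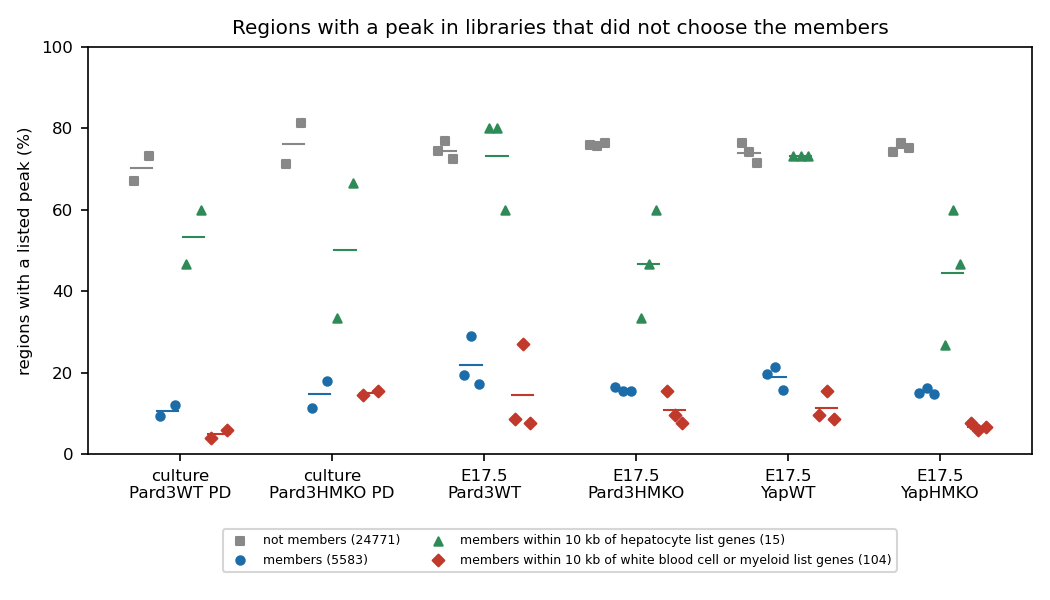
Each point is 1 library in which the members were not chosen, and the vertical axis gives the percentage of regions with a listed peak. The sets are the members, the other control-open regions, members near hepatocyte genes and members near white blood cell or myeloid genes. Members lie at 14.7% to 29.0% in the E17.5 groups, under the other control-open regions at 71.4% to 76.8%, which were not matched to the members by control score.

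Few members repeated the culture pattern in full at E17.5. A peak in all 3 Pard3WT and in no Pard3HMKO liver was found at 99 members (1.77%), close to the 1.73% of all merged regions and the 1.24% of the other control-open regions. The reverse pattern was found at 40 members (0.716%), against 2.51% of all regions and 2.67% of the other control-open regions. Of the 671 members with a peak in all 3 Pard3WT livers, the 99 are 14.8%, and 1.85% of such other regions lacked every Pard3HMKO peak. Over all merged regions that share was 4.90%. It was 20.8% (10 of 48) in regions with the opposite culture pattern, a peak in no control and in all 4 TPPB and Pard3HMKO libraries. The 14.8% was thus not particular to the members. For the Yap labels the counts were 69 members (1.24%), against 1.295% of all merged regions, and 35 in reverse (0.627%), against 2.04%. Both losses met at 28 members (0.502%), close to the 0.451% of all merged regions.

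Strong members among the 99 lay at Eml6, a microtubule protein gene (chr11:29808350-29808956; 96.78, 105.23 and 110.51 in Pard3WT livers), and at Ampd3, an AMP deaminase gene (chr7:110796495-110797056; 51.34, 93.92 and 74.53). Another lay over the start of the antisense gene Ptgs2os2, 56.6 kb from Ptgs2 (chr1:150164803-150165324; 75.28, 126.18 and 97.54), one at Acss1, a mitochondrial acetyl-CoA synthetase gene (chr2:150673760-150674526; 65.98, 81.08 and 63.43), and one 523 kb from Tyrp1 (chr4:80310639-80311505; 100.22, 84.68 and 71.85). The Ampd3, Ptgs2 and Tyrp1 members also lacked a peak in all 3 YapHMKO labelled livers, but had one in only 1, 1 and 2 of the 3 YapWT livers. The Eml6 member had peaks in both PD cultures of each genotype. Members near Cldn3, Fgb (fibrinogen beta chain), Pard6g and Prkce belonged to the 99 as well.

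Members near hepatocyte genes had a different state at E17.5 from members near immune genes. Of 15 members near genes of the hepatocyte lists, 80%, 80% and 60% had a peak in the 3 Pard3WT livers and 33.3%, 46.7% and 60% in the 3 Pard3HMKO livers, so the groups met at 60%. In YapWT the share was 73.3% in each library, and in YapHMKO labelled livers 26.7%, 60% and 46.7%. Of 104 members near white blood cell or myeloid genes, 8.65%, 26.9% and 7.69% had one in Pard3WT and 15.4%, 9.62% and 7.69% in Pard3HMKO, and 65 (62.5%) had none in all 12. These groups overlapped, and the top value was again Pard3WT replicate 2. The 929 members with a score of at least 100 in both controls were no more often open: 584 (62.9%) lacked every E17.5 peak.

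In culture with PD the members were seldom open in Pard3WT. They had a peak in 9.21% and 11.98% of cases in the 2 Pard3WT PD libraries and in 11.41% and 17.84% in the 2 Pard3HMKO PD libraries, while the other control-open regions stood at 67.0%, 73.3%, 71.2% and 81.2%. For the 15 members near hepatocyte genes the shares were 46.7% and 60% in Pard3WT PD and 33.3% and 66.7% in Pard3HMKO PD. The 104 near immune genes had 3.85% and 5.77%, then 14.4% and 15.4%. With 2 libraries against 2 no permutation p can fall under 0.33. PD libraries listed 24270 to 31877 peaks, fewer than the controls. At a lower control score of 50 to 60, a mean of 12.1% of members and 35.3% of other regions had a peak in Pard3WT PD. In Pard3HMKO PD the means were 14.0% and 41.3%. At a score of 100 or more they were 5.38% and 84.8%, then 16.8% and 90.1%.

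The regions with the mirrored pattern, a peak in all 4 TPPB and Pard3HMKO libraries and in neither control, numbered 812. In the E17.5 livers these had peaks more often in Pard3HMKO (19.46%, 18.3% and 19.7%) than in Pard3WT (9.85%, 9.73% and 8.13%).

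Transcripts of genes near members were next compared between groups. Counts of called genes use edgeR's quasi-likelihood test with Benjamini-Hochberg adjustment over all genes tested and a threshold of 0.05. Of 2307 tested genes near members, 175 (7.59%) were called lower and 38 (1.65%) higher with TPPB in Pard3WT culture, where 5.37% and 1.45% of all tested genes were. In Pard3HMKO culture 127 (5.50%) were called lower and 39 (1.69%) higher, against 3.4% and 1.57%. Both comparisons use the 2 Pard3WT controls and are the contrasts that chose the members, so values split by their calls are description only. In the YapWT cultures, which took no part in the choice, 214 genes near members (9.28%) fell with TPPB and 87 (3.77%) rose, against 7.17% and 3.28% of all genes tested. The share falling near other control-open regions was 8.63%. Without YapWT control replicate 1 the members' share falling was 5.57%, beside 3.67% of all genes in that fit. Without YapWT TPPB replicate 2 it was 5.82%, beside 4.07%. The shares rising were 1.61%, 1.98% and 1.11% without TPPB replicate 1, TPPB replicate 2 and control replicate 1, beside 1.39%, 1.44% and 1.33% of all genes. Over the main and 10 other fits the share falling near members was 1.29 to 1.83 times that of all genes.

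At E17.5, 213 of 2451 genes near members (8.69%) were lower and 202 (8.24%) higher in Foxa3-Cre Pard3HMKO liver, compared with 7.87% and 7.1% of all genes. In Alfp-Cre liver 92 (3.75%) were lower and 49 (2.00%) higher, against 3.07% and 2.25%. The shares near other control-open regions were 10.7% and 9.80%, then 3.795% and 3.06%, so the members' genes were close to the background at this age. Without Foxa3-Cre Pard3HMKO replicate 2 the members' shares were 4.62% lower and 4.86% higher, and without Foxa3-Cre Pard3WT replicate 2 they were 5.61% and 5.17%. Those of all genes in these fits were 4.25% and 3.67%, then 4.56% and 3.79%. In Alfp-Cre liver the lower share was 2.41%, 2.29% and 2.25% without Pard3HMKO replicate 1, Pard3HMKO replicate 2 and Pard3WT replicate 2, and the higher share was 0.790% and 1.15% without the last pair. Those of all genes were 1.70%, 1.55% and 1.60% lower, and 0.833% and 1.00% higher. Over wild-type development 520 of 2129 genes near members (24.4%) rose with age and 335 (15.7%) fell, against 18.6% and 17.1% of all genes and 19.2% and 20.0% near other control-open regions. Many of the E17.5 calls were lost when cells with at least 50% of another cell type's markers were left out, a step that removed many cells: 0.865% of genes near members were then lower and 0.228% higher in Foxa3-Cre liver, and 0.137% and 0% in Alfp-Cre liver. Of all genes 0.765% and 0.327%, then 0.123% and 0.0185%, were called in these fits.

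**Figure D3:**
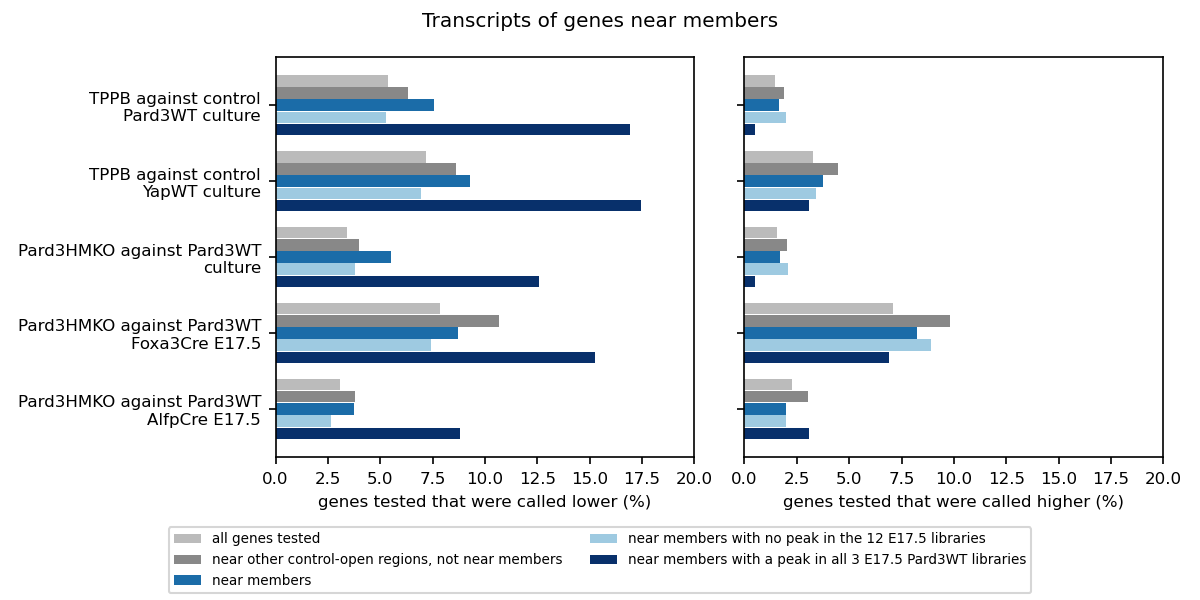
Horizontal bars give the percentage of tested genes called lower (one panel) and higher (the other) at an adjusted p under 0.05 in 5 comparisons, for all genes and for genes near groups of regions. In the YapWT culture 9.28% of genes near members fell with TPPB, and the bars for members still open in all 3 E17.5 Pard3WT livers reach further, to 17.4%.

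Genes near members that were open in E17.5 liver differed from those near members that were not. In the YapWT cultures 68 genes (17.4%) near members with a peak in all 3 E17.5 Pard3WT livers fell with TPPB, and 99 of 1428 (6.93%) near members with no E17.5 peak did. In Foxa3-Cre Pard3HMKO liver 64 of 420 (15.2%) of the former and 112 of 1506 (7.44%) of the latter were lower. With age, 137 of 386 (35.5%) of the former and 279 of 1293 (21.6%) of the latter rose. The difference between these shares was not tested, and genes are not independent replicates.

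Read by gene, the same split was present in the regions. Of 288 members near genes that fell with TPPB in YapWT culture, 27.1% had a peak in all 3 E17.5 Pard3WT livers, compared with 9.30% of 129 near genes that rose and 11.2% near genes not called. Members near genes called lower with TPPB in Pard3WT culture were open in 40.5%, 45.9% and 38.7% of cases in the 3 Pard3WT livers and in 29.7%, 28.8% and 29.3% in the 3 Pard3HMKO livers. Those near genes not called stood at 18.7%, 29.4% and 16.6%, and at 15.53%, 14.49% and 14.55%. The Pard3WT calls come from a contrast that chose the members, so these values per library are a description and not support for the split. Among control-open regions that are not members, the share open in all 3 Pard3WT livers was 75.1% near genes called lower and 72.0% near genes not called. By the YapWT calls it was 73.5% and 72.3%.

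**Figure D4:**
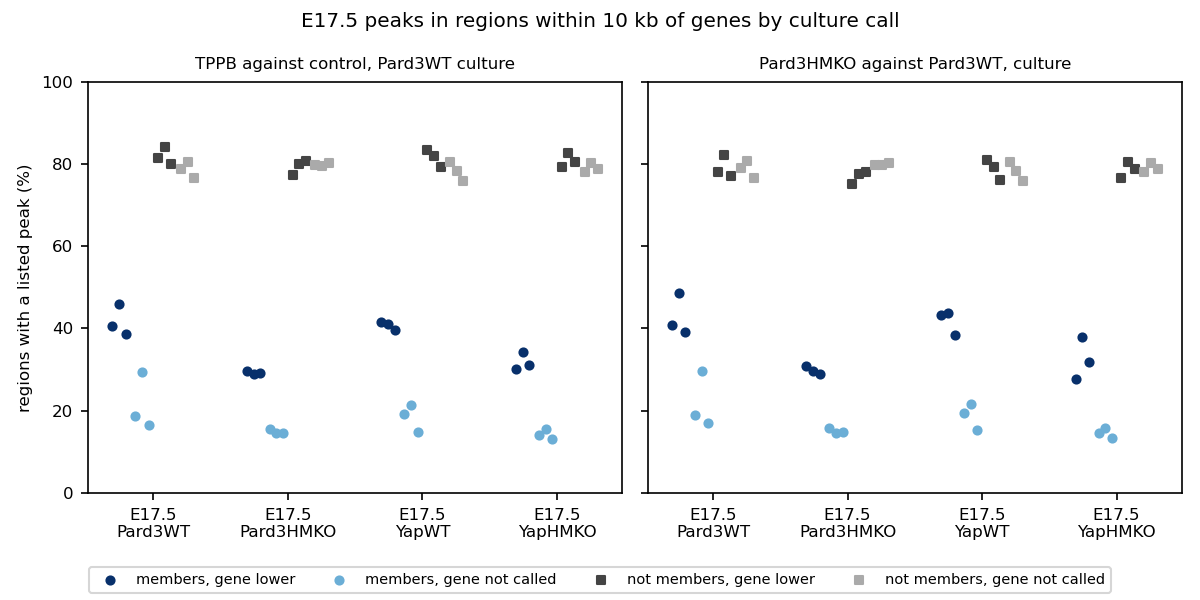
Each point is 1 E17.5 library, and the vertical axis gives the percentage of regions with a listed peak. The sets are members and other control-open regions near genes called lower or not called in each member-choosing culture comparison. Both comparisons chose the members, so the points are a description. Members near genes called lower with TPPB in Pard3WT culture lie at 38.7% to 45.9% in Pard3WT and at 28.8% to 29.7% in Pard3HMKO, above members near genes not called.

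Hepatocyte function genes with a member nearby fell together with TPPB. All 6 tested genes of that list near members (Cps1, F10, Fgb, Hpx, Plg and Ttr) fell in YapWT culture, with a median log2 difference of −3.06. The list as a whole moved in the same way, with 27 of 32 genes lower, so the fall was not particular to genes with a member. F10, which encodes clotting factor X, stood at 472 and 262 CPM in YapWT controls and at 17.4 and 24.2 CPM with TPPB, a log2 change of −4.14 ± 0.24 (adjusted p 9.85e-10). Plg stood at 389 and 221 CPM in controls and at 48.4 and 33.9 CPM with TPPB (−2.89 ± 0.30, adjusted p 6.58e-07). In neither gene did the groups overlap. In the cultures that chose the members, F10 was at 185 and 215 CPM in Pard3WT controls, 13.3 and 9.98 CPM with TPPB and 43.5 and 51.4 CPM in Pard3HMKO. Alb, the albumin gene, which has a member within 10 kb that is nearer to Afp, fell by 2.72 ± 0.25 on the log2 scale in YapWT culture (adjusted p 5.03e-07), from 23864 and 11676 CPM to 2961 and 2426 CPM.

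The same hepatocyte genes were lower in E17.5 Pard3HMKO liver. F10 was at 1617 and 1679 CPM in Foxa3-Cre Pard3WT and at 852 and 654 CPM in Pard3HMKO (−1.13 ± 0.10, adjusted p 1.12e-09), and at 858 and 1038 against 593 and 585 CPM in Alfp-Cre liver (−0.69 ± 0.10, adjusted p 2.13e-05). Fgb, the member of the list whose region lost its peak in all 3 Pard3HMKO livers, was at 30809 and 36108 CPM and at 13371 and 8301 CPM (−1.63 ± 0.16, adjusted p 2.05e-08). In Foxa3-Cre liver 5 of the 6 genes were lower, all but Cps1 (−0.61 ± 0.28, adjusted p 0.17). The list as a whole had 25 of 32 genes lower in Foxa3-Cre liver and 25 of 32 in Alfp-Cre liver. At this age too the fall was not particular to genes with a member. Without cells that carry other cell types' markers, F10 and Fgb remained called in Foxa3-Cre liver, and the Alfp-Cre call for F10 was lost (−0.54, adjusted p 0.51). With age in wild-type liver 5 of the 6 rose, all but Ttr.

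Genes that fell strongly near members in both member-choosing cultures included genes of liver transport, metabolism and junctions. Serpina6, corticosteroid-binding globulin, was at 778 and 812 CPM in Pard3WT controls, 24.1 and 24.3 CPM with TPPB and 80.6 and 56.0 CPM in Pard3HMKO. Cyp2d10, a cytochrome P450, was at 62.7 and 58.3, then 0.751 and 0.786, then 6.49 and 4.79 CPM. Cldn1 was at 60.4 and 97.6, then 1.36 and 2.42, then 6.28 and 10.1 CPM. In each gene all 4 other libraries lay far below both controls, which is how the genes were picked. The phosphate transporter gene Slc17a2 was at 11.4 and 10.96, then 0.273 and 0.121, then 0.419 and 0.957 CPM. Mgam, an intestinal-type glucosidase gene, and Insc, a spindle orientation gene, ran in the same order: Mgam at 8.85 and 13.8, then 0.136 and 0.968, then 0.733 and 1.20 CPM, and Insc at 40.1 and 27.5, then 4.03 and 1.39, then 3.82 and 2.68 CPM. The metal transporter gene Slc11a1 was uneven already in controls, at 32.3 and 6.13 CPM, with 0.136 and 1.81 CPM under TPPB and 0.367 and 2.202 CPM in Pard3HMKO.

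All 7 of these genes also fell with TPPB in the YapWT cultures, which did not choose them. Serpina6 went from 805 and 589 CPM to 10.3 and 25.6 CPM (−5.28 ± 0.44, adjusted p 4.74e-07). Cldn1 went from 101 and 80.5 CPM to 4.93 and 8.33 CPM (−3.78 ± 0.40, adjusted p 9.29e-07). The controls and treated libraries did not overlap in these genes. The others changed by −4.45 ± 0.78 (Slc17a2), −4.32 ± 0.70 (Mgam), −4.01 ± 0.53 (Cyp2d10), −4.00 ± 0.50 (Insc) and −3.62 ± 1.10 (Slc11a1). The Slc11a1 call was lost without YapWT TPPB replicate 1 (−2.78, adjusted p 0.28), without YapWT control replicate 1 (−2.69, adjusted p 0.25) and without cells carrying other types' markers (−2.97, adjusted p 0.20).

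At E17.5 these genes did not all move one way. Serpina6 rose in Pard3HMKO liver, from 1099 and 666 CPM to 3353 and 3642 CPM under Foxa3-Cre (1.99 ± 0.21, adjusted p 2.07e-07) and from 850 and 991 CPM to 3580 and 3798 CPM under Alfp-Cre (2.00 ± 0.21, adjusted p 5.88e-07). Cldn1 fell, from 235 and 241 CPM to 150 and 116 CPM (−0.84 ± 0.17, adjusted p 0.000432), and from 378 and 375 CPM to 221 and 222 CPM under Alfp-Cre (−0.76 ± 0.17, adjusted p 0.00315). Cyp2d10 fell from 227 and 264 CPM to 143 and 109 CPM (−0.96 ± 0.16, adjusted p 3.77e-05). The region at Serpina6 had a peak in all 3 E17.5 Pard3WT livers, as had those at Cldn1, Mgam and Cyp2d10. Without other-type cells the Foxa3-Cre calls were lost with like sizes, for Serpina6 at 2.14 (adjusted p 0.077), Cldn1 at −0.96 (adjusted p 0.22) and Cyp2d10 at −0.88 (adjusted p 0.32).

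**Figure D5:**
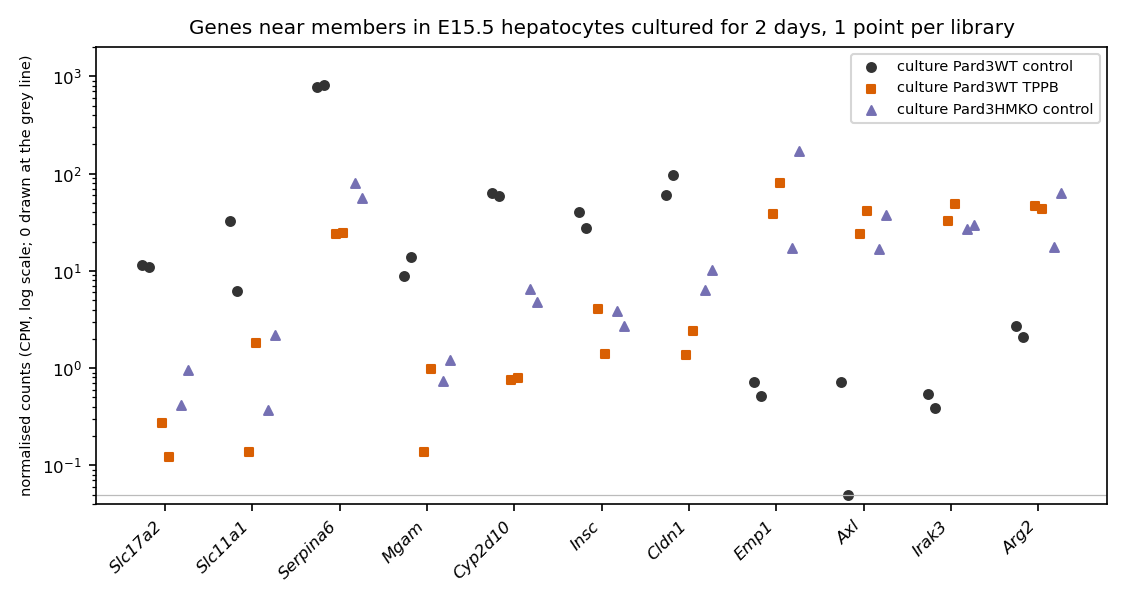
Normalised counts in CPM on a log axis for the named genes near members that were lower or higher in both member-choosing cultures, with 1 point per library for Pard3WT control, Pard3WT TPPB and Pard3HMKO control. Serpina6 stands at 778 and 812 CPM in the controls and at 24.1 to 80.6 CPM in the other 4 libraries, and Irak3 shows the opposite order, at 0.392 to 0.536 and 27.1 to 49.2 CPM.

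A smaller set of genes near members was higher where the members had no peak. Emp1, a membrane protein gene of epithelial stress responses, was at 0.715 and 0.522 CPM in Pard3WT controls, 38.8 and 80.01 CPM with TPPB and 17.2 and 170 CPM in Pard3HMKO. Irak3, a brake on Toll-like receptor signalling, was at 0.536 and 0.392, then 32.8 and 49.2, then 27.1 and 29.7 CPM. Axl was at 0.715 and 0, then 24.2 and 41.2, then 16.6 and 37.3 CPM. Arg2, the mitochondrial arginase gene, was at 2.68 and 2.09, then 46.3 and 43.4, then 17.49 and 63.4 CPM. In each of the 4 both controls lay below the other libraries, which is how the genes were picked.

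In YapWT culture Emp1, Irak3 and Axl rose with TPPB and Arg2 did not pass. Emp1 went from 0.781 and 4.8 CPM to 83.8 and 108 CPM (5.13 ± 1.09, adjusted p 0.00497), a call lost without YapWT control replicate 1 (4.32, adjusted p 0.080). Irak3 went from 5.96 and 11.4 CPM to 92.1 and 119 CPM (3.61 ± 0.81, adjusted p 0.00626), lost without the same library (3.22, adjusted p 0.10). Axl went from 0.293 and 3.84 CPM to 44.3 and 56.3 CPM (4.62 ± 1.41, adjusted p 0.0434), and its call was lost without either TPPB library (4.79, adjusted p 0.095, without replicate 1, and 4.44, adjusted p 0.13, without replicate 2) or without control replicate 1 (3.71, adjusted p 0.27). Arg2 was at 15.7 and 31.9 CPM and then 49.4 and 46.7 CPM (1.01 ± 0.56, adjusted p 0.30). At E17.5 Irak3, Axl and Arg2 were under 1 CPM in each Foxa3-Cre Pard3 library.

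Most genes that overlapped a member covering a start site did not pass a test. The start could be their own or another gene's, as at Cpt1a, where the member covered the start of Gm36532. Of 151 such genes tested, 22 (14.6%) fell with TPPB in YapWT culture, beside 7.17% of all genes. In the cultures that chose the members 18 (11.9%) were lower with TPPB, beside 5.37% of all genes, and 14 (9.27%) in Pard3HMKO, beside 3.4%. Counted instead by a gene's own promoter window, 11 genes with a window covered by a member had lower transcripts in both member-choosing cultures. They were Slc11a1, Amy1, Klkb1, Nr1i2, Serpina1c, Rdh7, Cyp2d10, Agxt, Slc22a18, Itih1 and Acsl1. Amy1, Klkb1, Serpina1c, Rdh7, Cyp2d10 and Itih1 had a start-site peak in all 6 E17.5 Pard3 livers. In YapWT culture Serpina1c fell from 547 and 227 CPM to 50.5 and 46.2 CPM (−3.00 ± 0.34, adjusted p 9.07e-06). Amy1 fell from 42.0 and 43.7 CPM to 7.82 and 6.82 CPM (−2.55 ± 0.40, adjusted p 0.000121). Itih1, an inter-alpha-trypsin inhibitor chain, fell from 154 and 103 CPM to 12.1 and 9.53 CPM (−3.57 ± 0.29, adjusted p 3.6e-08), and Acsl1, a fatty acid activating enzyme, from 144 and 86.6 CPM to 25.7 and 28.4 CPM (−2.09 ± 0.23, adjusted p 1.68e-06). Nr1i2 fell by 2.16 ± 0.36 on the log2 scale (adjusted p 0.00029), and was −2.18 (adjusted p 0.077) when only the compared libraries were fitted. At E17.5 Serpina1c, Amy1, Itih1 and Acsl1 were also lower in Foxa3-Cre Pard3HMKO liver (−1.33 ± 0.18, −1.12 ± 0.20, −0.79 ± 0.15 and −0.95 ± 0.14). These 4 calls were lost without other-type cells, at −1.15, −1.09, −0.63 and −0.94.

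Metabolic and nuclear receptor genes near members fell in part. On the metabolic list 5 of 10 fell with TPPB in YapWT culture, 5 of 10 were lower in Foxa3-Cre Pard3HMKO liver and 9 of 10 rose with age. The list as a whole gave like shares, with 20 of 36, 15 of 36 and 30 of 36. Acadm, medium-chain acyl-CoA dehydrogenase, fell from 142 and 125 CPM to 34.8 and 21.5 CPM in YapWT culture (−2.25 ± 0.22, adjusted p 3.21e-07) and from 803 and 1011 CPM to 514 and 348 CPM in Foxa3-Cre liver (−1.07 ± 0.15, adjusted p 1.71e-06), where it also passed without other-type cells. Cpt1a, the gate of fatty acids into mitochondria, fell by 2.00 ± 0.36 on the log2 scale in YapWT culture (adjusted p 0.000785) and by 1.29 ± 0.28 in Foxa3-Cre liver (adjusted p 0.00146), a call lost without Pard3HMKO replicate 2 (−1.03, adjusted p 0.069) and without other-type cells (−1.69, adjusted p 0.29). On the hepatocyte transcription factor list 3 of 7 near members fell in YapWT culture and 5 of 7 rose with age, beside 7 of 25 and 16 of 26 on the whole list. Nr1h4, the bile acid receptor FXR, fell from 27.4 and 22.1 CPM to 4.42 and 4.23 CPM with TPPB (−2.52 ± 0.45, adjusted p 0.00081).

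Polarity, ERK and YAP genes near members gave mixed counts. Of 12 tested polarity genes, 2 fell in YapWT culture, and at E17.5 under Foxa3-Cre 2 were lower and 1, Cdh1, was higher (0.77 ± 0.20, adjusted p 0.00634). On the whole polarity list 3 of 32 fell in YapWT culture, and of 33 at E17.5 under Foxa3-Cre 3 were lower and 2 higher. On the whole ERK response list 10 of 25 genes were lower in Foxa3-Cre Pard3HMKO liver and 2 higher. Of the 5 near members, Dusp1, Fos and Myc were lower there and Etv5 higher. The Dusp1 call was lost without Pard3HMKO replicate 2 (−1.67, adjusted p 0.093), the Fos call without any 1 of the 4 libraries (−1.26 to −1.03), the Cdh1 call without Pard3WT replicate 2 (0.69, adjusted p 0.092) and all 5 of these calls without other-type cells. Myc went from 60.9 and 99.6 CPM to 20.6 and 30.9 CPM (−1.64 ± 0.33, adjusted p 0.000496) while in culture it was at 121 and 153 CPM in Pard3WT controls, 418 and 460 CPM with TPPB and 325 and 405 CPM in Pard3HMKO. In YapWT culture Myc did not pass (0.82 ± 0.32, adjusted p 0.12). Of 4 genes near members on the YAP and TEAD list 2 rose in YapWT culture, beside 5 of 18 on the whole list. Of 3 cell cycle genes none passed in culture, 2 were higher in Foxa3-Cre Pard3HMKO liver and all 3 fell with age. The whole cell cycle list had 11 of 25 genes higher in that liver.

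Immune genes near members were at low levels in the RNA libraries, and few passed a test. Of 28 tested white blood cell genes near members, none was called with TPPB in Pard3WT culture and 1, Runx1, was called higher in Pard3HMKO. In YapWT culture 4 fell, 1 rose (Runx1), and the median log2 difference was −2.99. On the whole list of 36 tested genes 6 fell and 2 rose there, with a median of −3.10. The 40-gene list summed to 210 to 290 CPM in Pard3WT controls, 515 to 564 CPM with TPPB and 431 to 548 CPM in Pard3HMKO, and 18 to 19, 10 to 13 and 12 to 16 of its genes were over 1 CPM. The 14-gene myeloid list summed to 63.3 to 65.7, 59.0 to 74.9 and 67.3 to 111 CPM, and 7 to 8, 4 and 6 of its genes were over 1 CPM. So fewer immune genes were detected where the members had no peak, while the sums did not fall. The part of other cell types in the member pattern was not tested.

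The YapWT controls carried more myeloid RNA than the Pard3WT controls. There the myeloid list summed to 499 to 1070 CPM, and to 92.6 to 99.3 CPM with TPPB. Lyz2, lysozyme of myeloid cells, went from 134 and 307 CPM to 1.59 and 1.20 CPM in YapWT culture (−7.30 ± 0.77, adjusted p 9.99e-07) and was −1.81 (adjusted p 0.32) without cells carrying other types' markers. C1qb was at 4.65 and 5.22 CPM in Pard3WT controls, 0.682 and 0.423 CPM with TPPB and 1.20 and 0.622 CPM in Pard3HMKO. Csf1r, the macrophage growth factor receptor, ran the other way in YapWT culture, from 3.32 and 2.52 CPM to 33.1 and 34.7 CPM (3.53 ± 0.73, adjusted p 0.00243). At E17.5 no myeloid or white blood cell gene near a member was called in either line. The ATAC libraries hold no RNA, so the cells in them cannot be checked in this way.

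The largest changes near members at E17.5 under Foxa3-Cre fell into unlike groups. Txnip, a glucose-responsive inhibitor of thioredoxin, was at 233 and 259 CPM in Pard3WT and 42.0 and 35.1 CPM in Pard3HMKO (−2.67 ± 0.29, adjusted p 8.77e-08). Ppp1r3g, a glycogen-targeting phosphatase subunit, was at 29.9 and 50.8 and then 9.34 and 6.30 CPM (−2.37 ± 0.43, adjusted p 0.000116). Nceh1, a cholesterol ester hydrolase, was at 21.0 and 21.4 and then 5.56 and 3.69 CPM (−2.19 ± 0.48, adjusted p 0.00107). All 3 fell with no overlap, and Ppp1r3g and Nceh1 were also lower under Alfp-Cre (−1.72 ± 0.42 and −2.40 ± 0.48). The Alfp-Cre call for Ppp1r3g was lost without Pard3HMKO replicate 2 (−1.27, adjusted p 0.28) or Pard3WT replicate 2 (−1.53, adjusted p 0.10). Zc3h12d was at 5.42 and 17.3 and then 0.618 and 1.16 CPM (−3.69 ± 0.95, adjusted p 0.00587), a call lost without Pard3HMKO replicate 1 (−3.29, adjusted p 0.10) or Pard3WT replicate 2 (−2.62, adjusted p 0.12). P4ha2, a collagen prolyl hydroxylase subunit, was at 43.4 and 53.6 and then 10.2 and 11.7 CPM (−2.15 ± 0.64, adjusted p 0.0208), lost without Pard3HMKO replicate 1 (−2.06, adjusted p 0.16), Pard3HMKO replicate 2 (−2.25, adjusted p 0.14) or Pard3WT replicate 2 (−1.99, adjusted p 0.12). Without other-type cells only Txnip of these 5 passed (−3.00, adjusted p 0.000579).

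DNA replication genes and App rose. Mcm3, a replicative helicase subunit, was at 4.91 and 2.37 CPM in Pard3WT and 33.9 and 30.0 CPM in Pard3HMKO (3.15 ± 0.47, adjusted p 1.35e-05). Cdc6, which loads that helicase, was at 2.56 and 0.171 and then 11.4995 and 12.5237 CPM (3.18 ± 0.72). Dtl, which directs the destruction of replication licensing proteins, was at 2.52 and 1.71 and then 14.7 and 14.1 CPM (2.77 ± 0.48, adjusted p 6.22e-05). App, the amyloid precursor gene, with 4 members and none open at E17.5, was at 0.768 and 1.34 and then 14.8 and 15.0 CPM (3.78 ± 0.42, adjusted p 3.07e-08). In culture App went the other way, from a mean of 241 CPM in Pard3WT controls to 89.8 CPM with TPPB and 105 CPM in Pard3HMKO. With TPPB in YapWT culture it changed by −0.93 (adjusted p 0.0103), a call lost in 4 of the other fits. Usp42, a ubiquitin protease gene, was at 1.20 and 1.37 and then 7.60 and 15.9 CPM (3.19 ± 0.61, adjusted p 0.000222). The groups did not overlap in these 5 genes. In Foxa3-Cre Pard3HMKO liver the other cell types' lists were higher too: myeloid 117 to 165 CPM against 58.3 to 95.6, stellate 114 to 131 against 31.0 to 32.7, endothelial 28.4 to 59.8 against 15.9 to 19.9 and erythroid 110 to 183 against 29.8 to 98.1. Without cells carrying such markers the App, Mcm3, Cdc6, Dtl and Usp42 calls were lost, at 3.37 (adjusted p 0.15), 3.68 (0.29), 3.72 (0.23), 3.10 (0.30) and 1.81 (0.75).

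Over wild-type development the steepest rises near members were in liver genes. Rdh7, a retinol dehydrogenase, rose from 0.312 and 0.132 CPM at E11.5 to 399 and 419 CPM at E17.5 and 1327 and 1264 CPM at E19.5, a slope of 1.68 ± 0.13 log2 per day (adjusted p 2.43e-09). Cfhr2, a complement factor H relative, rose at 1.61 ± 0.16 per day (adjusted p 1.06e-07), from 0.289 and 0.351 CPM to 500 and 515 CPM. Serpina3k was at 0 in most libraries before E17.5, at 3.61 and 4.27 CPM at E17.5 and at 41.1 and 21.7 CPM at E19.5 (adjusted p 2.07e-10). Both Rdh7 and Cfhr2 fell with TPPB in YapWT culture (−3.82 ± 0.36 and −4.50 ± 0.62) and were lower in Foxa3-Cre Pard3HMKO liver (−1.57 ± 0.29 and −1.93 ± 0.29, which became −1.42 and −1.74 and no longer passed without other-type cells). The steepest falls were in Emb, a cell surface glycoprotein gene (−0.85 ± 0.20, seen mainly at E11.5), Trim71, an RNA-binding repressor of early development (−0.78 ± 0.09), and Lpcat1, a phospholipid enzyme gene (−0.69 ± 0.11). Trim71 declined from 261 and 225 CPM at E11.5 to 3.49 and 2.51 CPM at E19.5, and was higher in E17.5 Pard3HMKO liver under both Cre lines, at 68.4 and 74.6 CPM against 23.2 and 18.0 CPM under Foxa3-Cre (1.80 ± 0.31, adjusted p 0.000103, and 1.69, adjusted p 0.11, without other-type cells).

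With PD added, Cldn1 and Serpina6 transcripts were nearer the control level than without it, described here without a test. With TPPB and PD together Cldn1 was at 48.5 and 60.8 CPM and Serpina6 at 226 and 375 CPM in Pard3WT culture. In Pard3HMKO culture with PD they were at 46.8 and 67.8 and at 343 and 658 CPM. The hepatocyte function list summed to 46064 to 51196 CPM with TPPB and PD and to 45316 to 47224 CPM in Pard3HMKO with PD, beside 54946 to 57362 CPM in controls. Serpina6 remained below its 778 and 812 CPM. No ATAC library with TPPB and PD together was analysed here, and in the PD libraries the members had a peak in 9.21% to 17.84% of cases. The Cldn1 member itself had a peak in both PD libraries of each genotype, at 66.18 and 66.35 in Pard3WT and at 63.39 and 69.46 in Pard3HMKO.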

How the data were processed

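The members, the gene lists and the tests were chosen with earlier results of these data known. ATAC-seq peak lists hold, per library, peak positions on mm10 and a score; the authors deposited these lists and the score is the authors' own, used only to describe peaks. Peaks were called per library with MACS 1.4.2 after Trimmomatic 0.38, Bowtie2 2.2.5 and SAMtools 1.3.1, per the submitters' processing notes. The score's definition is not given in the sources used here. Counts per gene and cell make up the RNA table, deposited by the authors after Trimmomatic 0.39 and HISAT2 2.1.0 (GRCm38), per the submitters' processing notes; their counting tool is not given in the sources used here, nor is the gene annotation, nor whether they are reads or molecules. The counts of 4264 cells over 40824 genes were summed per library, leaving out 92 spike-in entries (126 counts).

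Peaks overlapping by at least 1 base were merged over the 6 culture libraries, and a region had a peak in any other library where 1 base was shared. Each region was given its nearest RefSeq gene (GRCm38.p6) and was called near it within 10 kb (a second distance of 50 kb was used for members near list genes). Of 2816 genes near members, 2776 were matched by symbol in the RNA table. Promoter windows ran from 250 bases before to 50 after each start, and counted as covered with at least 150 bases in a region. Chromosome 18 is not in the promoter and place counts.

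Library sums were tested with edgeR 4.0.16 (TMM normalisation, low-count filter, quasi-likelihood fits), with Benjamini-Hochberg adjustment over all genes tested. Fits ran over all culture libraries, over all Foxa3-Cre and Alfp-Cre liver libraries of E11.5 to P14, or over all wild-type libraries with age as a number. The spread behind the E17.5 tests was thus shared with other ages and genotypes. CPM values were divided by TMM-scaled totals. E17.5 shares were compared by exact permutation of libraries. Alternatives were DESeq2 1.42.0, its size factors, no filter, only the compared libraries, the replicate number as a block, each library left out, and cells with at least 50% of another cell type's markers left out. The fits were tested on simulated data first. R 4.3.3, Python 3.11.15, numpy 2.4.6, pandas 2.3.3 and matplotlib 3.10.9 were used.

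Named members and genes follow rules: the 8 members with the highest lower control score, up to 8 of highest score near pathway genes, up to 6 with a peak in all 3 E17.5 Pard3WT and no Pard3HMKO liver, up to 8 genes lower and 4 higher in both member-choosing cultures at 10 CPM or more, up to 5 per direction at E17.5, up to 3 per direction with age, and Pard3, Alb and Afp. A few items that these rules name are not reported here. Other list genes are named with their list, and the white blood cell list, the PU.1 motif and the immune start sites were chosen after seeing the data. Intervals cover the spread between libraries only.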

Additional observations from a re-analysis of the deposited data

Results flagged for a closer look

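In 6 genes near members or always reported, the change in E17.5 Pard3HMKO liver differed between the 2 Cre lines by an interaction term in edgeR, with adjustment over all genes. App was 3.49 log2 units further up under Foxa3-Cre than under Alfp-Cre (3.78 and 0.29, adjusted p 0.000117), and Mcm3 2.48 units (3.15 and 0.67, adjusted p 0.0223). Txnip differed by −1.95 (−2.67 and −0.72, adjusted p 0.00381), Afp by −0.777 (−1.12 and −0.34, adjusted p 0.00738), Lpin2 by −0.755 (−1.21 and −0.46, adjusted p 0.0391) and Ttr by −0.625 (−1.14 and −0.51, adjusted p 0.00485). In each gene the change was larger under Foxa3-Cre. The marker lists of other cell types ran in opposite directions in the 2 lines for the myeloid list: 117 to 165 CPM in Pard3HMKO against 58.3 to 95.6 CPM in Pard3WT under Foxa3-Cre, and 33.8 to 82.1 CPM against 136 to 148 CPM under Alfp-Cre. Their part in the differences was not tested.

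S100a8, whose start site a member covered, changed with TPPB by −1.13 in Pard3WT and by −7.58 in YapWT culture, a difference of 6.45 (adjusted p 0.0178). It stood at 2.14 and 1.83 CPM in Pard3WT controls and at 147 and 292 CPM in YapWT controls, with 0.726 to 1.14 CPM in all 4 TPPB libraries. Without cells carrying other types' markers the YapWT change was −1.03 (adjusted p 0.64).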

How the results depend on the processing

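The number of members moved with the rule: 5583 stayed 5583 at 50% overlap and became 5517 with peaks merged within 100 bases, but 929 with a control score of 100 or more, 2055 with all peaks at 100 or more, 14344 without Pard3WT control replicate 1 and 8545 without replicate 2 (5735 to 14344 over all 6 libraries left out). The replicate numbers did not pair the libraries (correlations of deviations −0.0541 to 0.0789). With the replicate number as a block, libraries numbered 1 gave 12650 members and those numbered 2 gave 15468, the E17.5 difference was −7.48 points (exact permutation p 0.25), and shares of genes called stayed within 1.5 times. The E17.5 difference lay between −8.73 and −5.02 with any library left out. Shares of genes near members called lower and higher ranged, with 1 library left out, over 4.70% to 5.80% and 0.413% to 1.03% for TPPB in Pard3WT, 5.57% to 8.62% and 1.11% to 3.19% in YapWT, 2.59% to 3.62% and 0.329% to 1.24% for Pard3HMKO culture, 4.62% to 6.91% and 4.86% to 6.72% for Foxa3-Cre and 2.25% to 3.24% and 0.790% to 1.58% for Alfp-Cre liver. DESeq2 gave 3.24% higher for TPPB in Pard3WT, 13.9% lower in YapWT, 10.2% lower and 3.44% higher in Pard3HMKO culture and 6.77% lower in Alfp-Cre liver. With no filter 3.09% were higher for TPPB in Pard3WT and 3.02% in Pard3HMKO culture. With only the compared libraries the values were 5.44% lower and 2.35% higher in YapWT, 2.91% lower and 0.803% higher in Pard3HMKO culture and 0.865% higher in Alfp-Cre liver. Without other-type cells they were 0.737% higher for TPPB in Pard3WT, 0.783% higher in Pard3HMKO culture, 0.865% lower and 0.228% higher in Foxa3-Cre and 0.137% lower and 0% higher in Alfp-Cre liver, where 0.765%, 0.327%, 0.123% and 0.0185% of all genes were; this step leaves fewer cells. Members at 100 or more gave 2.12% lower and 0.963% higher in Alfp-Cre liver. The causes were not tested. Of single-gene values 37 of 211 lost their call with only the compared libraries and 98 of 272 without other-type cells. Of 2014 gene values with 1 library left out, 248 lost their call and 1 changed sign: Ltf with TPPB in YapWT, 5.48 without YapWT control replicate 2 (−13.5 to 5.48 over the libraries left out).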
